A study of Mus musculus with 90 samples.

Results

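The subject is the nuclear genes for subunits of the oxidative phosphorylation machinery in mouse melanoma allografts treated with an antibody against PD-L1. Members were taken by symbol: genes starting with Ndufa, Ndufb, Ndufc, Ndufs, Ndufv, Uqcr or Atp5, the genes Sdha to Sdhd, and the subunit families Cox4 to Cox8, with assembly factors left out. Of 18194 genes with a probe set naming a single symbol on the arrays, 82 were members: 34 of complex I, 4 of complex II, 8 of complex III, 11 widely expressed and 8 tissue-restricted members of complex IV, and 17 of complex V, the ATP synthase. Another 8 symbols, among them Ndufa11 and Ndufs6, occurred only on probe sets that name several genes and were not analysed here.

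Total RNA from 90 subcutaneous tumours was hybridised to single-colour arrays in studies called 2 (53 tumours) and 3 (37 tumours). All samples share 1 genotype, Hgftg;Cdk4R24C/R24C, and 1 strain, B6.cBrd, without a statement of whether graft, host or both are meant. Tumours got clone 80, a mouse IgG1 against mouse PD-L1 whose Fc part carries D265A, or a control mouse IgG1 with the same Fc change, each at 10 mg/kg, or the PBS vehicle at 10 ml/kg. Treated tumours were sorted by their volume course: responders had shrunk, non-responders had kept growing, stabilized tumours showed no volume change, relapsed tumours had regrown after shrinking below measurable size, and growth delay tumours were first seen once dosing had begun. Because outcome defined when and why a tumour was taken, outcome and harvest cannot be told apart.

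In study 2 there were 17 responders, 14 non-responders and 14 IgG controls beside 3 PBS controls, 3 relapses and 2 tumours with growth delay. In study 3 there were 10 responders, 9 non-responders and 8 IgG controls beside 4 PBS controls, 3 relapses and 3 stabilized tumours. Labels give each tumour a number of its own but do not say how many hosts or cell batches they came from, so the p-values measure the spread between these tumours.

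Oxidative phosphorylation makes most of the ATP of a resting cell. Complexes I and II feed electrons from NADH and succinate to ubiquinone, complex III passes them to cytochrome c, complex IV hands them to oxygen, and the proton gradient that complexes I, III and IV build drives the ATP synthase. Each large complex has a few catalytic core subunits, partly encoded in mitochondrial DNA, and many small accessory subunits encoded in the nucleus. Melanoma cells use the pathway alongside glycolysis, and a block of complex IV subunits exists as muscle, lung or testis isoforms that replace the common form in those tissues.

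Many promoters of these genes hold sites for the nuclear respiratory factors NRF1 and GABP, the latter an ETS family factor. A link between such sites and the levels of the members in these tumours was not tested. A promoter of 300 bases, 250 before and 50 after the annotated start, was listed by RefSeq on GRCm38.p6 for 67 of the 82 members. On either strand, the NRF1-type letters (GCGC, any base, T, then GCGC again) were found in 15 of these 67 members (22.4%), against 8.61% of the 14453 measured genes with a listed promoter. The ETS-type letters CCGGAAG were found in 17 members (25.4%), against 15% of those genes. The 4 promoter stretches below, the 110 bases before the start written 5′ to 3′ on the gene's own strand with matches in capitals, come from 2 complex II subunits, of which Sdhd fell in responders and Sdha did not pass the test, and from an ATP synthase and a complex I subunit that fell.
Sdha, minus strand, chr13:74350241-74350350: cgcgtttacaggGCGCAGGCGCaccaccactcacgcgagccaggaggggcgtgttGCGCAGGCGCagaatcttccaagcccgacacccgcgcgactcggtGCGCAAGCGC
Sdhd, minus strand, chr9:50603850-50603959: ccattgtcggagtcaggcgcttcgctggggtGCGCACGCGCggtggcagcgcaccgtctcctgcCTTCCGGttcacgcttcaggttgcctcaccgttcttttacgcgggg
Atp5e, minus strand, chr2:174464102-174464211: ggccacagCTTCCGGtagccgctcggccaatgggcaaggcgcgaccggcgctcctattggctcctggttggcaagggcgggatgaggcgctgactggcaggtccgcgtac
Ndufa8, minus strand, chr2:36049339-36049448: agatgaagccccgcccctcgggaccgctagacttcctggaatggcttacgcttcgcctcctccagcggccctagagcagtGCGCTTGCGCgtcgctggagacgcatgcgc
The Sdha stretch holds 3 NRF1-type matches, Sdhd 1 NRF1-type and 1 ETS-type match, Atp5e 1 ETS-type match and Ndufa8 1 NRF1-type match; the motifs do not overlap there. Among members with a listed promoter, 10 of 15 with the NRF1-type letters and 34 of 52 without them were lower in responders than in non-responders, and for the ETS-type letters the counts were 13 of 17 and 31 of 50. These matches describe letters only, and binding was not measured.

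The first question was how tumours that shrank under the antibody differed from those that grew. Subunit transcripts were lower in responders: 52 of 82 members fell and none rose at an adjusted p under 0.05 (limma, both studies weighted equally), while across all genes 32.3% were lower and 18.9% higher. At an unadjusted p under 0.05, 59 members (72%) passed, as did 58.1% of all genes. The median member differed by -0.18 on the log2 scale and the median of all genes by -0.06. Falls came from every complex: 23 of 34 complex I members, 2 of 4 of complex II, 5 of 8 of complex III, 8 of 11 widely expressed and 2 of 8 restricted members of complex IV, and 12 of 17 of the ATP synthase. The shifts were small, the largest being 1.45-fold, and responder and non-responder tumours overlapped for all 82 members in both studies. Overlap was not counted over all genes, so it does not set the members apart from them.

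**Figure D1:**
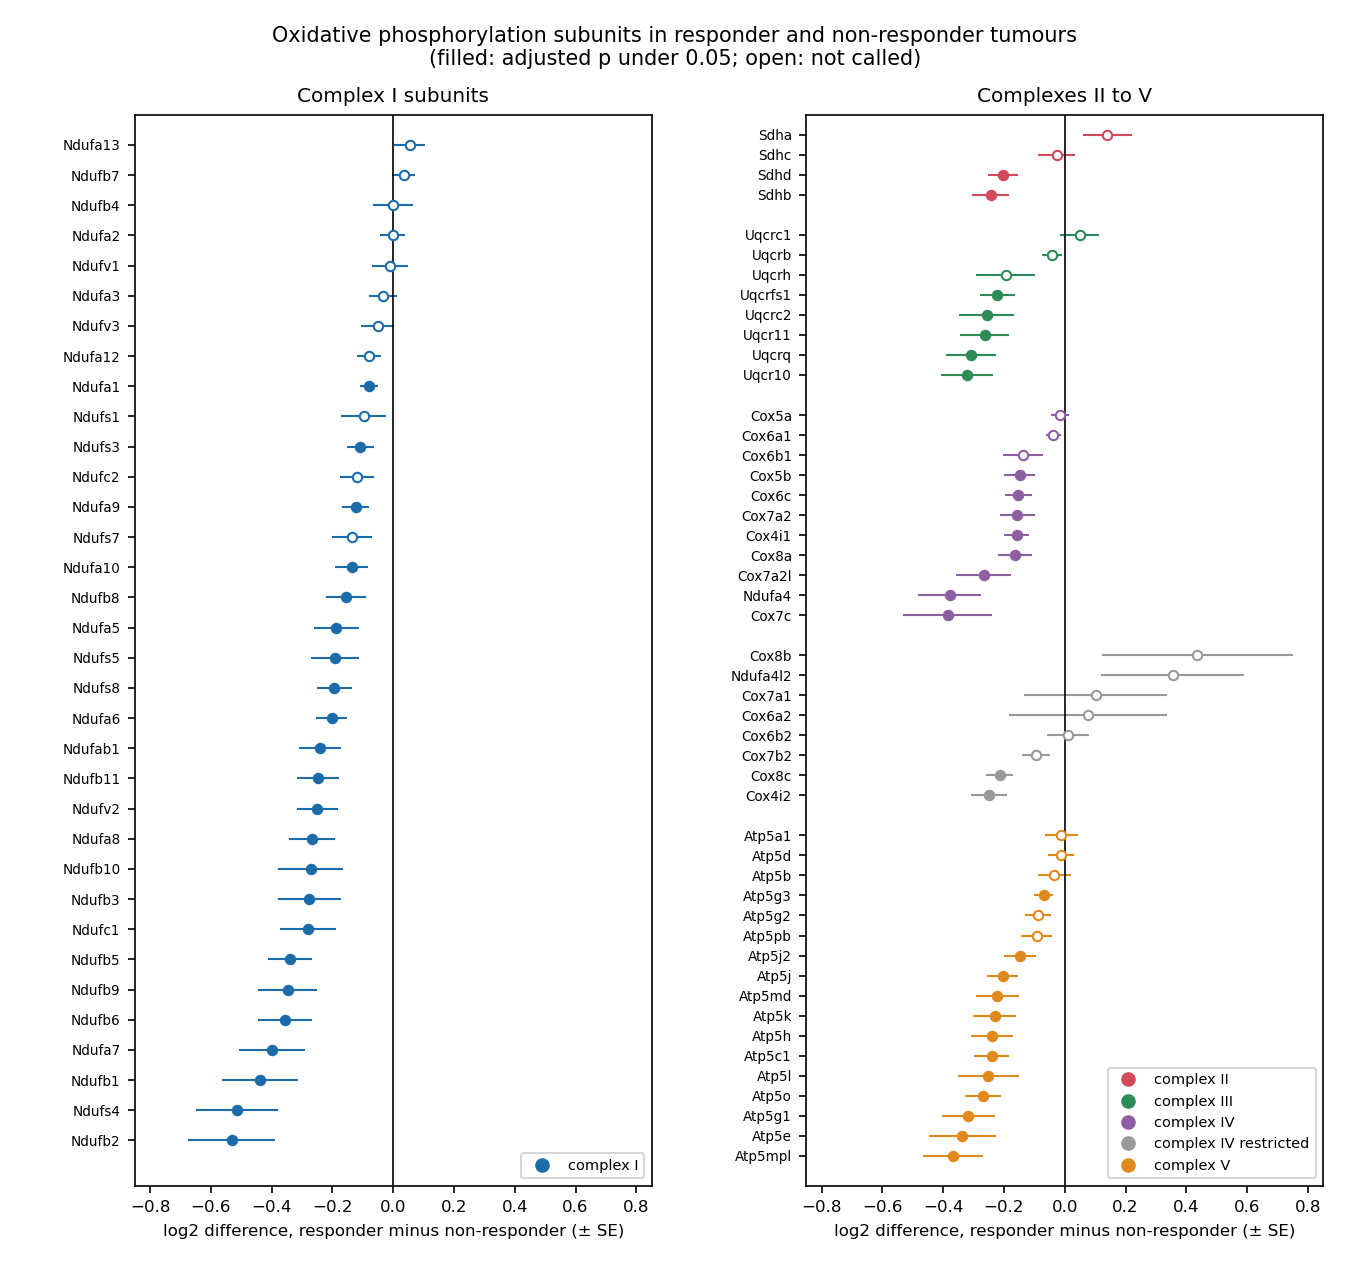
The log2 difference between responder and non-responder tumours (x axis, log2 units, mean of both studies) for each of the 82 members, by complex; bars are standard errors of the limma fit, filled points passed an adjusted p of 0.05 and open points did not. All 52 filled points lie left of 0, down to -0.53 for Ndufb2.

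Complex I takes electrons from NADH. Its 6 measured nuclear core subunits, most of which bind the flavin or iron-sulfur clusters, differed by a median of -0.12, and 3 of them fell. The core subunit Ndufv1, which holds the flavin, stood at -0.01 ± 0.06 (SE) and Ndufs1, a carrier of iron-sulfur clusters, at -0.10 ± 0.07; neither passed the test. Ndufv2, another iron-sulfur core subunit, fell by 0.25 ± 0.07 (adjusted p = 0.00231). Of the 13 Ndufb and Ndufc subunits, accessory proteins of the membrane arm, 10 fell with a median of -0.28. Of the 12 Ndufa-type accessory subunits (Ndufab1 included), 8 fell with a median of -0.13. The grouping by role was made after the values were seen and carries no test.

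Ndufb2, a small membrane arm subunit, had the largest fall of any member in the average of both studies. In study 3 its log2 level was 9.94, 11.15 and 11.77 (lowest, median and highest) in 10 responders and 11.53, 12.03 and 12.22 in 9 non-responders. In study 2 the same values were 10.56, 11.09 and 12.14 in 17 responders and 10.20, 11.46 and 12.43 in 14 non-responders. In study 3, 7 responders lay below the lowest non-responder, whereas in study 2 none did and the groups overlapped fully. The difference was -0.53 ± 0.14 (1.45-fold lower, adjusted p = 0.00251).

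Ndufs4 is an accessory subunit at the NADH-oxidising end, whose loss in mice gives a model of the mitochondrial disease Leigh syndrome. Study 3 responders had log2 levels of 9.72, 10.34 and 11.06 and non-responders 10.52, 11.28 and 11.38. Study 2 responders had 9.66, 10.03 and 11.17 and non-responders 9.75, 10.54 and 11.42. The study 2 responders were split: replicates 12, 15 and 17 stood between 10.90 and 11.17, and the other 14 at 10.28 or below. The fitted difference was -0.52 ± 0.13 (1.43-fold lower, adjusted p = 0.00202), and the other 3 probe sets of Ndufs4 were also lower, by 0.35 to 0.45.

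The same 3 tumours were the highest study 2 responders for Ndufb2 (11.91, 12.14 and 12.00), the ATP synthase subunit Atp5e (12.41, 12.70 and 12.56) and Ndufa4 (13.52, 13.88 and 13.64). For the complex II subunit Sdha these tumours were the lowest of the group, at 10.60, 10.71 and 10.76 against a group median of 11.05. Ndufb1, a further small membrane arm subunit, differed by -0.44 ± 0.13 (adjusted p = 0.00405). Its study 3 levels were 7.48, 8.14 and 8.70 in responders and 8.10, 8.90 and 9.13 in non-responders, with 5 responders below the lowest non-responder.

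Complex II is the succinate dehydrogenase of the citrate cycle and pumps no protons. Of its 4 subunits 2 fell: the iron-sulfur subunit Sdhb fell by 0.24 ± 0.06 (adjusted p = 0.00135) and the membrane anchor Sdhd by 0.20 ± 0.05 (adjusted p = 0.00128), while the second anchor Sdhc stood at -0.03 ± 0.06 (adjusted p = 0.721). Sdha, the flavin subunit that oxidises succinate, stood at 0.14 ± 0.08 (adjusted p = 0.126). In study 3, Sdhb levels were 11.75, 12.34 and 12.52 in responders and 12.43, 12.60 and 12.67 in non-responders, with 7 of 10 responders below every non-responder. Sdha levels were 10.39, 10.76 and 11.40 in responders and 10.15, 10.54 and 10.94 in non-responders, so the order of the medians was the reverse of that for Sdhb. Sdha was the member whose probe sets passed the test in opposite directions. Of its 4, the one used had a mean level of 10.84. A second one, at 10.31, was higher by 0.26 (adjusted p = 0.00875 among all probe sets, limma). Another differed by -0.14 (adjusted p = 0.0206 among all probe sets, limma). Its mean level was 4.26, under the median level of all genes, 7.01.

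Complex III joins 2 large core proteins, Uqcrc1 and Uqcrc2, with the Rieske iron-sulfur protein Uqcrfs1 and several small subunits. Of its small subunits 3 fell: Uqcr10 by 0.32 ± 0.09, Uqcrq, which lies next to cytochrome b, by 0.31 ± 0.08 and Uqcr11 by 0.26 ± 0.08 (adjusted p = 0.00227, 0.00243 and 0.00715). The small subunits Uqcrh (-0.19 ± 0.10, adjusted p = 0.0834) and Uqcrb (-0.04 ± 0.03, adjusted p = 0.262) did not pass. Another Uqcrb probe set was lower by 0.26 (adjusted p = 0.0283 among all probe sets, limma). The Rieske protein fell by 0.22 ± 0.06 (adjusted p = 0.00187) and the core protein Uqcrc2 by 0.26 ± 0.09 (adjusted p = 0.0173). The other core protein, Uqcrc1, stood at 0.05 ± 0.07 (adjusted p = 0.533). Uqcr10 levels in study 3 were 11.06, 11.66 and 12.00 in responders and 11.69, 12.11 and 12.22 in non-responders, with 6 of 10 responders below the lowest non-responder.

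Complex IV reduces oxygen to water. Among its widely expressed nuclear subunits, Cox7c fell by 0.38 ± 0.15 (adjusted p = 0.0246) and Ndufa4, once assigned to complex I and now counted with complex IV, by 0.38 ± 0.10 (adjusted p = 0.00314). Cox7c was read at a mean level of 7.86, and the next lowest of these subunits, Cox7a2l, at 11.66. Ndufa4 levels in study 3 were 12.30, 13.28 and 13.56 in responders and 13.39, 13.68 and 13.81 in non-responders. In study 2 they were 11.90, 13.003 and 13.88 in responders and 12.18, 13.36 and 13.75 in non-responders. Of the study 3 responders 7 lay below the lowest non-responder, against 1 in study 2. Cox7a2l, which links complexes III and IV into supercomplexes, fell by 0.27 ± 0.09 (adjusted p = 0.0119). Cox4i1, the common regulatory subunit, fell by 0.16 ± 0.04 (adjusted p = 0.00171). Cox5a and Cox6a1 stood at -0.02 ± 0.03 and -0.04 ± 0.02 and did not pass. A second Cox6a1 probe set, at a mean level of 12.55, was lower by 0.18 (adjusted p = 0.00583 among all probe sets, limma). The probe set used for Cox6a1 spanned 13.48 to 14.02 over all 90 tumours, where the highest deposited value of any probe set was 14.84. Whether the probe set used for Cox6a1 neared saturation was not tested.

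The ATP synthase turns the proton gradient into ATP with a catalytic F1 head, a rotating c ring and a peripheral stalk. Of the 5 F1 subunits 2 fell: the central stalk subunits Atp5e by 0.34 ± 0.11 (adjusted p = 0.0107) and Atp5c1 by 0.24 ± 0.06 (adjusted p = 0.000997). The third stalk subunit, Atp5d, stood at -0.01 ± 0.04, and the catalytic-ring proteins Atp5a1 and Atp5b stood at -0.01 ± 0.06 and -0.03 ± 0.05; none of these passed. All 5 membrane-embedded accessory subunits fell (median -0.23), led by Atp5mpl at -0.37 ± 0.10 (adjusted p = 0.0026). Atp5g1, which encodes the same mature c ring protein as Atp5g2 and Atp5g3, fell by 0.32 ± 0.09 (adjusted p = 0.00336); its log2 difference compares with -0.09 and -0.07 for those paralogs, of which Atp5g3 also passed. Of the 4 peripheral stalk subunits 3 fell. The remaining one, Atp5pb, stood at -0.09 with the probe set used and did not pass. Its other probe set was lower by 0.34 (adjusted p = 0.000843 among all probe sets, limma). Atp5e levels in study 3 were 11.72, 12.19 and 12.46 in responders and 12.03, 12.63 and 12.77 in non-responders, and in study 2 11.43, 11.61 and 12.70 against 11.44, 12.06 and 13.01. All 10 study 3 responders lay below the non-responder median, and 14 of 17 did in study 2.

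**Figure D2:**
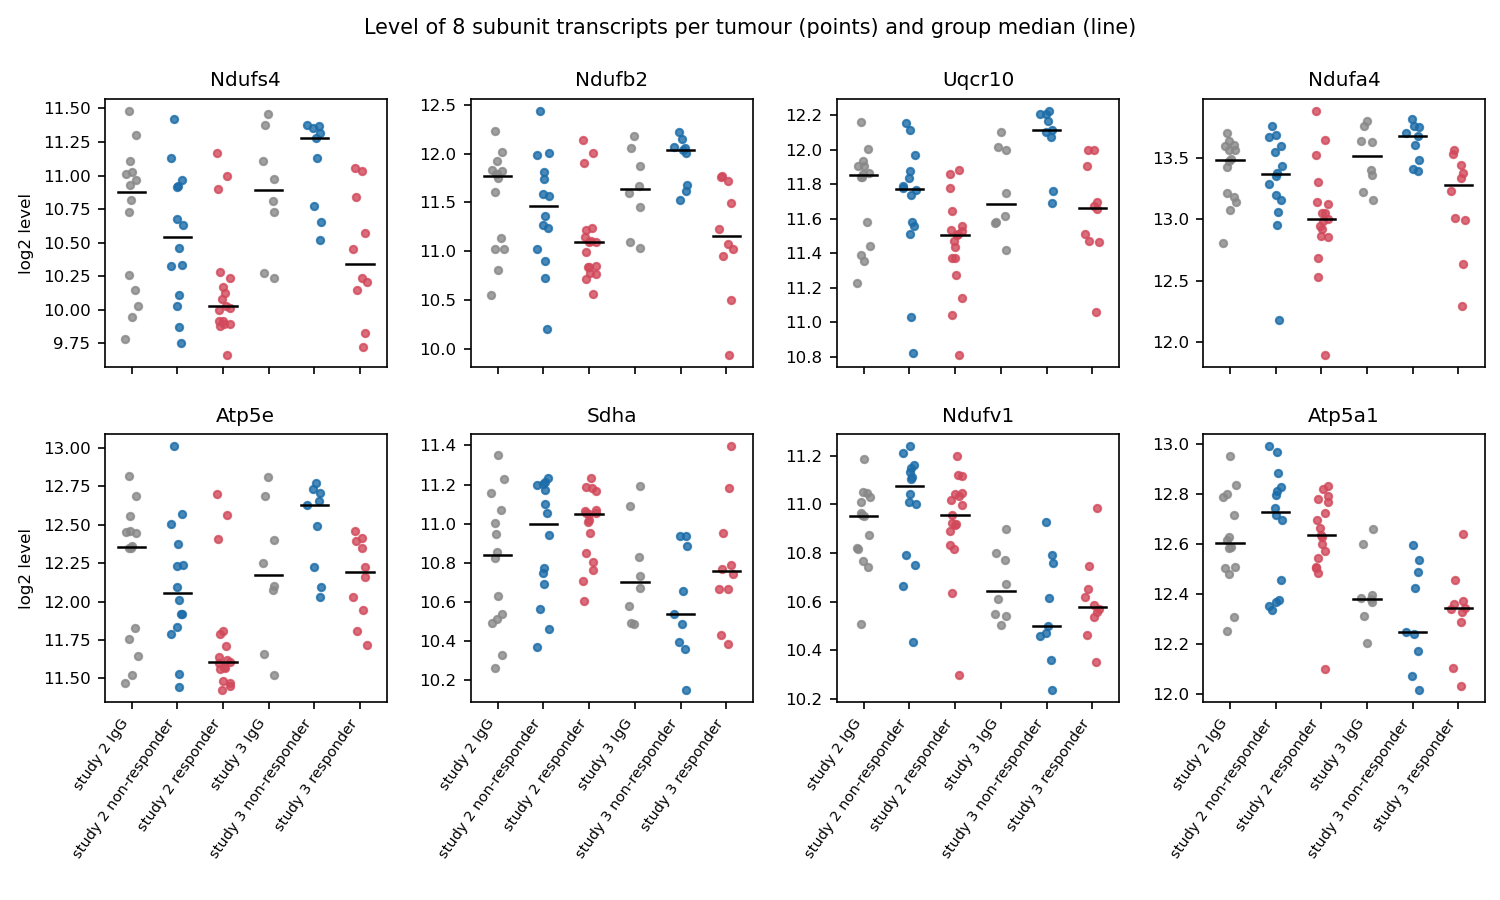
Log2 level (y axis) of 8 members in each IgG, non-responder and responder tumour of studies 2 and 3; points are tumours and lines group medians. Ndufs4, Ndufb2, Uqcr10, Ndufa4 and Atp5e have lower responder than non-responder medians in both studies, Sdha a higher one in both, and Ndufv1 and Atp5a1 a lower one in study 2 and a higher one in study 3.

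Among the tissue-restricted isoforms, Cox4i2, the lung and hypoxia-induced counterpart of Cox4i1, fell by 0.25 ± 0.06 (adjusted p = 0.00104), and Cox8c, a testis isoform, by 0.21 ± 0.04 (adjusted p = 0.000192). Cox4i2 had a mean level of 6.23, under the median level of all genes, 7.01. A second Cox8c probe set stood at -0.13 and did not pass (adjusted p = 0.177 among all probe sets, limma). Cox8c in study 3 ran from 7.51 to 8.003 in responders and from 7.90 to 8.47 in non-responders, with 7 of 10 responders below every non-responder. The testis isoforms Cox6b2 (0.01 ± 0.07) and Cox7b2 (-0.10 ± 0.05, adjusted p = 0.0719) did not pass; Cox7b2, at a mean level of 3.33, was among 6 members under the median level of all genes, 7.01, where array signal is least able to show a change. Ndufa4l2, a hypoxia-induced relative of Ndufa4, stood at 0.36 ± 0.24 (adjusted p = 0.194), with study 2 responders from 7.01 to 11.27 and non-responders from 7.47 to 8.95. It passed in limma with array weights (0.54, adjusted p = 0.0222), whose fit did not converge. Study 3 responder 3, which held the lowest level of Ndufa4l2, 6.48, had a weight of 0.0775 there.

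Each study was also fitted on its own contrast. In study 3, 32 members were lower and none higher, against 22.4% and 14.4% of all genes, with a median of -0.21. The largest falls there were Ndufb2 (-0.78 ± 0.22, adjusted p = 0.00733), Ndufs4 (-0.68 ± 0.21), Ndufb1 (-0.57 ± 0.20), the accessory subunit Ndufa7 (-0.50 ± 0.17) and Ndufa4 (-0.48 ± 0.16). In study 2, 1 member was lower, Cox6c, a small complex IV subunit (-0.18 ± 0.05, adjusted p = 0.0498), and none higher, against 2.01% and 0.616% of all genes. An unadjusted p under 0.05 was found there for 36 members (43.9%) and 26.6% of all genes, and the median member stood at -0.16. The difference between the studies was called for no member and no gene (0 in either direction), with 1 member, the muscle isoform Cox8b, at an unadjusted p under 0.05 against 13.3% of all genes. Responder medians lay below non-responder medians for 78 members in study 2 and 69 in study 3. Group medians were not compared over all genes. The fitted difference was above 0 for 4 members and 7354 of 18194 genes in study 2. In study 3 it was above 0 for 14 members and 7188 genes.

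These within-study counts moved when single tumours were left out. Study 3 gave 13 lower members without responder replicate 3, where 13.2% of all genes were lower, and 16 without responder replicate 4, where 13% were. Study 2 gave 21 lower members without non-responder replicate 14 (9.39% of all genes) and 10 without responder replicate 15 (4.91%). It gave 4 without responder 17 (3.51%), 3 without responder 12 (3.63%) and 2 without responder 13 (2.24%). It also gave 2 without non-responder 1 (2.15%) and 2 without non-responder 12 (3.91%). It kept 1 call without responder 7 or 11 and lost it without any of the other 22. The count for both studies together stayed between 44 and 57 whichever responder or non-responder tumour was left out.

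Averaged over all members of a complex in each tumour, complex I differed by -0.19 between responders and non-responders, complex III by -0.20, complex IV (without the restricted isoforms) by -0.18, complex V by -0.18 and complex II by -0.08. In study 3 the complex I mean ran from 10.94 to 11.54 (median 11.32) in responders and from 11.40 to 11.65 (median 11.58) in non-responders, with 7 of 10 responders below the lowest non-responder. In study 2 it ran from 10.85 to 11.63 (median 11.18) in responders and from 10.91 to 11.71 (median 11.40) in non-responders. For complex II 1 responder of study 3 lay below the lowest non-responder, against 6 or 7 for each other complex; in study 2 the count was 1 for all 5 complexes. In bulk tumours fewer cells of a type and less RNA per cell cannot be told apart.

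**Figure D3:**
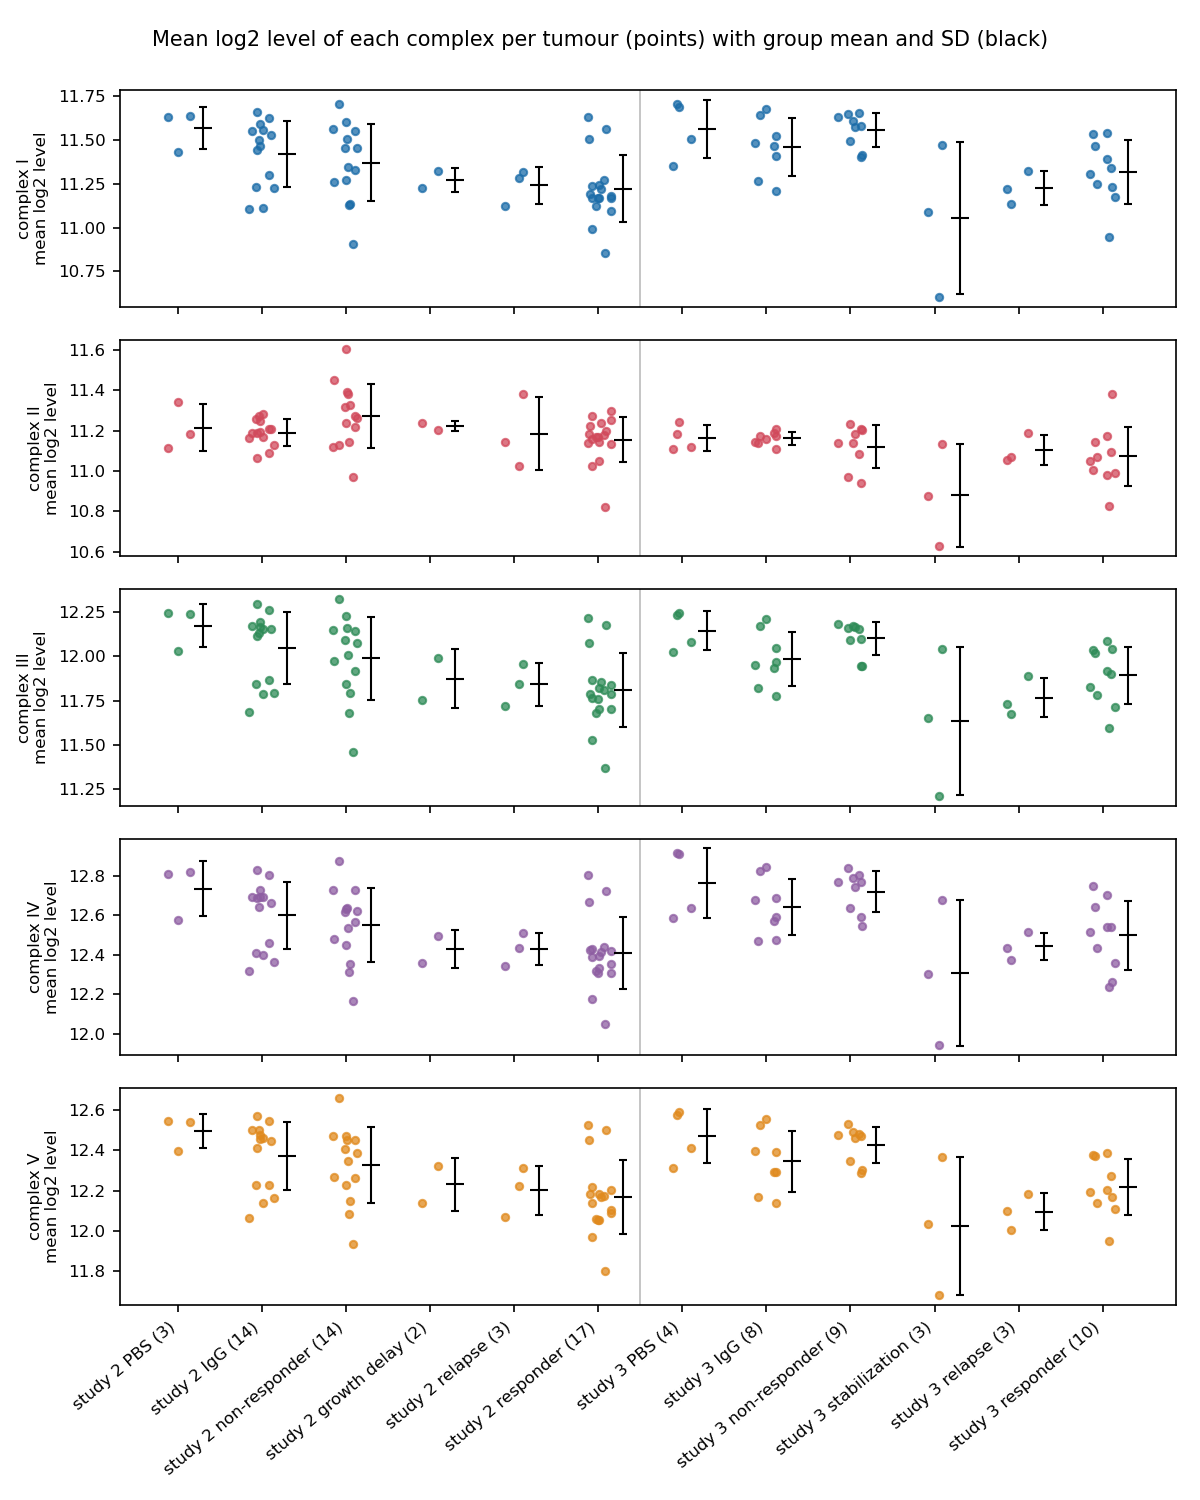
Mean log2 level of the members of complexes I to V (y axes; complex IV without restricted isoforms) in each of 90 tumours, by study and outcome with the number of tumours in brackets; black marks are group means and bars SD. Responder means lie below non-responder means in both studies for all 5 complexes, and the 3 stabilized tumours of study 3 spread widest.

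Other cells of the tumour moved with the same comparison. Of the measured markers, 10 of 11 T cell genes rose and 1 fell, 11 of 12 macrophage, 11 of 11 fibroblast and 6 of 7 adipocyte genes rose, 5 of 13 melanocyte genes fell, and 6 of 13 cell cycle genes fell and none rose, where 32.3% of all genes fell and 18.9% rose. The mean log2 level of the fibroblast list ran from 8.99 to 12.38 in study 3 responders and from 7.87 to 9.59 in non-responders, and that of the melanocyte list from 6.80 to 9.49 and from 9.19 to 9.62. The T cell list mean ran from 6.59 to 9.75 in study 3 responders and from 5.66 to 6.63 in non-responders, and in study 2 from 5.802 to 8.14 and from 5.57 to 9.73. Their part in the subunit result was not tested.

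The melanocyte list stood below 9 in 7 tumours: study 2 responders 4 and 5, non-responder 14, study 3 responders 3 and 4, and stabilized tumours 1 and 2. Without them 43 members were lower in responders than in non-responders and none higher, against 25.7% and 15.5% of all genes. In study 2 alone 7 were then lower, against 4.92% of all genes, and in study 3 the count went from 32 to 8, against 7.53% of all genes, so that the study 3 share lay near that background. Cox7c lost its call then (-0.31, adjusted p = 0.0902). RNA quality, read as the log2 difference between 3′ and 5′ probe sets of the array's control genes, averaged 0.31 in study 3 responders and 0.19 in non-responders, and near 0 in both study 2 groups. With it as a covariate the count of lower members was 52. The share of all genes in that fit is not given here.

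Within groups the members moved as a block with a few exceptions. After each group's mean was removed, the 74 members outside the restricted isoforms had a median pairwise correlation of 0.56 across the 90 tumours, and 84.5% of their 2701 pairs were above 0; these values share arrays and normalization and are given as a description. For 43 members the correlation with the mean of the others exceeded 0.8, and 39 of those were among the members that fell. For 7 of the 74 members it was below 0, and none of those fell. They were Sdha (-0.66), Uqcrc1 (-0.46), Atp5a1 (-0.25), the supernumerary complex I subunit Ndufa13 (-0.23), the F1 subunit Atp5d (-0.13), Atp5b (-0.05) and Ndufv1 (-0.00). Without the 7 tumours low in melanocyte transcripts, Sdha stood at -0.82, Uqcrc1 at -0.80, Atp5a1 at -0.65, Atp5b at -0.63 and Ndufv1 at -0.52. Other core or F1 subunits were among those above 0.8, with Ndufv2 at 0.95, Atp5c1 at 0.94, Uqcrc2 at 0.88 and Uqcrfs1 at 0.86.

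**Figure D4:**
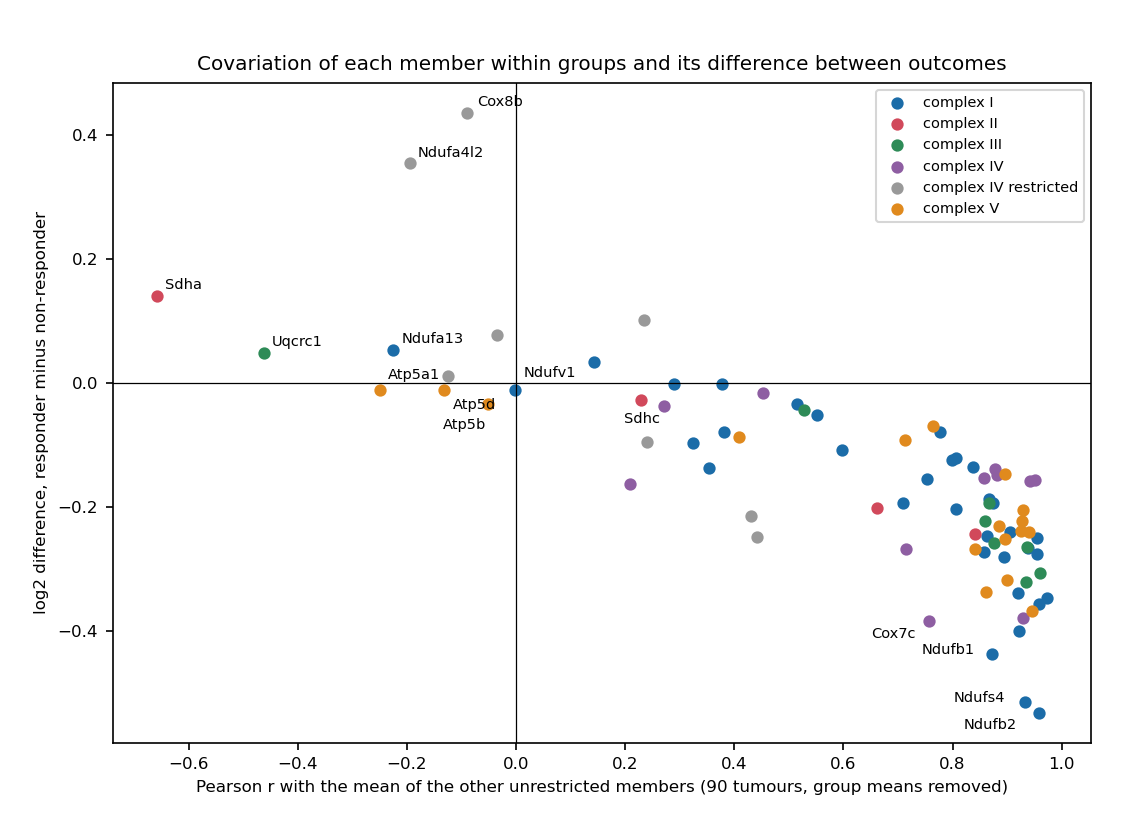
For each of 82 members, the Pearson correlation with the mean of the other members outside the restricted isoforms across 90 tumours after removal of group means (x axis) and the log2 difference between responders and non-responders (y axis), coloured by complex. Most members sit at the lower right. Of the members outside the restricted isoforms, 7 have a correlation below 0 and sit at the left near or above a difference of 0. They are Sdha, Uqcrc1, Atp5a1, Ndufa13, Atp5d, Atp5b and Ndufv1. The restricted isoforms Ndufa4l2, Cox6b2, Cox8b and Cox6a2 also have a correlation below 0.

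The complexes followed each other in the same way. Their per-tumour means correlated within groups at 0.94 to 0.98 for any pair of complexes I, III, IV and V, and at 0.22 to 0.41 for complex II with the others. The mean of all 5 complexes correlated at 0.93 with the mean of 40 mitochondrial ribosome genes, at -0.57 with the fibroblast list, -0.58 with macrophages, -0.48 with T cells, 0.40 with melanocytes and 0.16 with the 3′ to 5′ difference (89 arrays, without the study 3 PBS tumour farthest from the median, which stood at 5.20).

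The neighbouring mitochondrial gene lists were counted in the same comparison, in which 32.3% of all genes fell and 18.9% rose. Of 40 measured mitochondrial ribosome genes, which make the subunits encoded in mitochondrial DNA, 32 fell and none rose (median -0.30), led in p-value by Mrps24 (-0.50 ± 0.12, adjusted p = 0.000801). Of 14 complex I assembly factors 8 fell and 1 rose, with Ndufaf6 at -0.63 ± 0.16 (adjusted p = 0.00128). Of 28 assembly factors for the other complexes 15 fell and 2 rose, with the complex II factor Sdhaf3 at -0.63 ± 0.17 (adjusted p = 0.00225). Of 9 ubiquinone synthesis genes 5 fell, with Coq6 at -0.30 ± 0.07 (adjusted p = 0.000388). Of 13 carriers, pores and cytochrome c genes 3 (23.1%) fell, below the share of all genes, among them the ADP/ATP carrier Slc25a5 (-0.21 ± 0.07, adjusted p = 0.0166).

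Of 21 measured genes of the citrate cycle and pyruvate dehydrogenase 5 (23.8%) fell and 4 (19%) rose, shares below and near those of all genes, with a median of -0.03. Suclg2, the GTP-forming succinyl-CoA ligase subunit, rose by 0.70 ± 0.18 (adjusted p = 0.00211), Ogdh, of the 2-oxoglutarate dehydrogenase, rose by 0.35 ± 0.11 (adjusted p = 0.0091), and fumarase, Fh1, fell by 0.37 ± 0.11 (adjusted p = 0.00658). Of 17 regulators of mitochondrial biogenesis 6 (35.3%) fell and 3 (17.6%) rose, both near the shares of all genes. The nuclear receptor Esrra fell by 0.21 ± 0.07 (adjusted p = 0.00775) and Tfb1m, a methyltransferase of mitochondrial ribosomal RNA, fell by 0.42 ± 0.14 (adjusted p = 0.0108). The mitochondrial RNA polymerase Polrmt rose by 0.33 ± 0.11 (adjusted p = 0.0105).

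Muscle isoforms of complex IV were highest in a few tumours, and none passed between outcomes in the main fit. Cox6a2, Cox7a1 and Cox8b replace Cox6a1, Cox7a2 and Cox8a in skeletal and heart muscle, and Cox7a1 and Cox8b are also made in brown fat. They differed by 0.08 ± 0.26, 0.10 ± 0.23 and 0.44 ± 0.31 between responders and non-responders, and none passed; without study 3 responder replicate 4 the differences of Cox6a2 and Cox7a1 were -0.16 and -0.15. With the muscle list as a covariate Cox8b passed (0.48, adjusted p = 0.0177). Of 14 skeletal muscle markers such as Ckm and Acta1 none passed.

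Study 3 responder 4 held 12.97 of Cox6a2, 10.60 of Cox7a1 and 11.87 of Cox8b, with a skeletal muscle list mean of 13.12. Study 2 responder 14 followed with 10.83, 7.67 and 8.85 at a list mean of 11.76. In the 73 tumours with a muscle list mean of 9 or less the medians of the 3 isoforms were 7.55, 5.17 and 5.28. All 17 tumours with a list mean above 9 had the 3 isoforms above these medians, with lowest values of 8.34, 5.51 and 6.46. Over 90 tumours the muscle list correlated with Cox6a2 at r = 0.91 (rho = 0.84), with Cox8b at 0.82 (rho = 0.67) and with Cox7a1 at 0.68 (rho = 0.63), and at 0.92, 0.78 and 0.59 without the 2 tumours farthest from the median of the list. The ubiquitous partners had r of -0.15 (Cox6a1), -0.12 (Cox7a2) and -0.20 (Cox8a).

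Among the 73 tumours with a muscle list mean of 9 or less, study 3 responder 3 held the most Cox8b, 8.43 at a list mean of 5.09. Next came study 3 non-responder 8 with 7.15 at a list mean of 8.68, and study 3 responder 2 held 6.76 at 5.63. In responder 3 Cox6a2 stood at 7.61 and Cox7a1 at 4.78, near or below the medians of tumours poor in muscle transcripts, and its adipocyte list mean of 11.02 was the highest of the 90 tumours, with a brown fat list mean of 4.62 against a highest value of 5.01. The part of these cells in its Cox8b level was not tested.

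**Figure D5:**
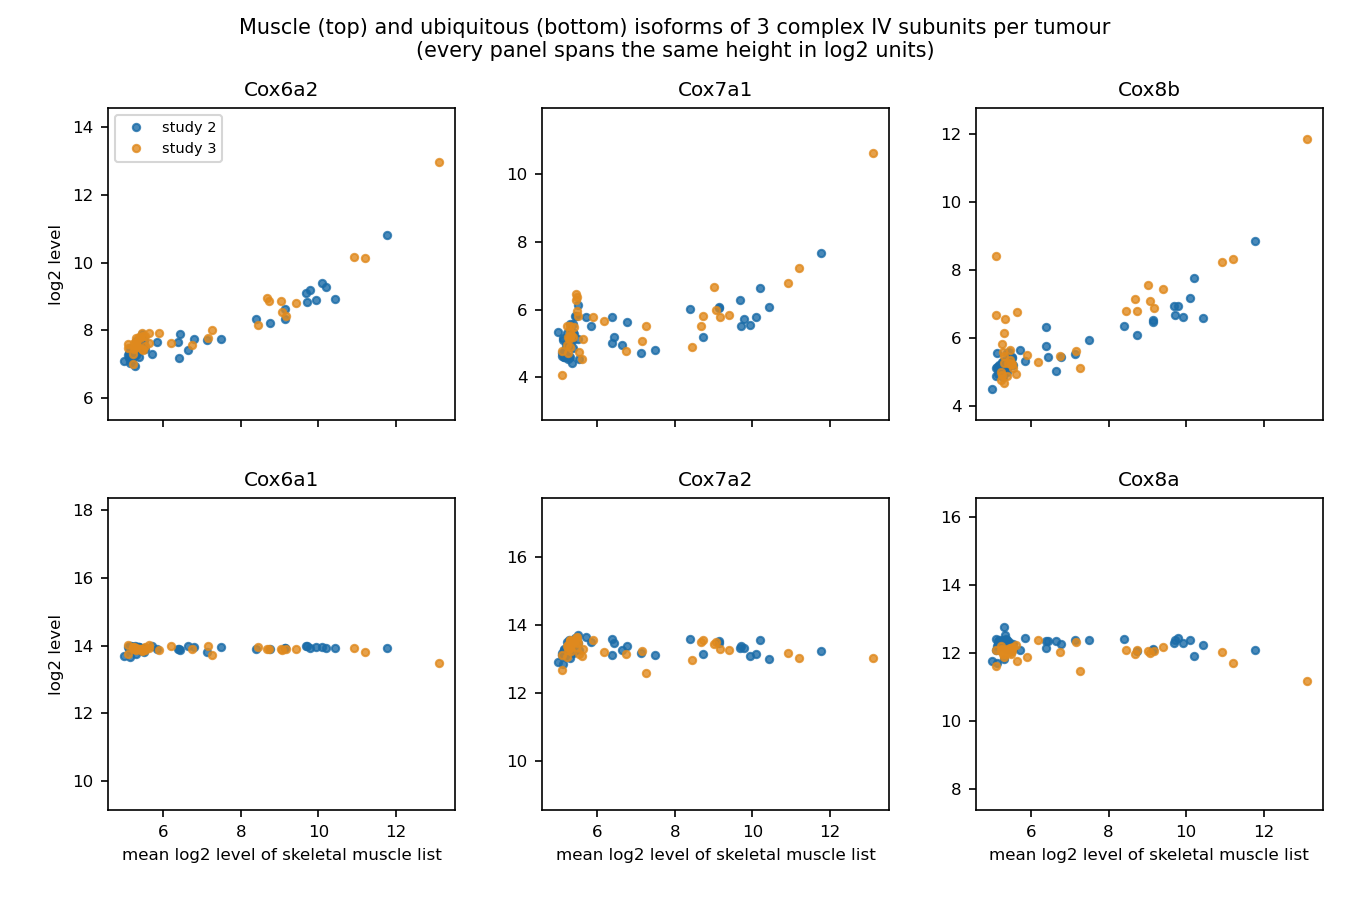
Log2 level (y axes, each spanning the same height) of the muscle isoforms Cox6a2, Cox7a1 and Cox8b and their ubiquitous partners Cox6a1, Cox7a2 and Cox8a in 90 tumours against the mean log2 level of 14 skeletal muscle genes (x axes), coloured by study. The muscle isoforms climb with the list up to 12.97, 10.60 and 11.87 in 1 study 3 responder, while the ubiquitous partners show no such climb. In that responder Cox6a1 and Cox8a are at their lowest of the 90 tumours, 13.48 and 11.19.

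Against the IgG control tumours, responders again had lower subunit transcripts: 41 members fell and 1 rose, against 20.1% lower and 15.3% higher of all genes, with a median of -0.15. This comparison shares the responder tumours with the previous one. The largest falls were Ndufs4 (-0.48 ± 0.14, adjusted p = 0.00673), Ndufb2 (-0.43 ± 0.15), Cox7c (-0.43 ± 0.15), Ndufa4 (-0.36 ± 0.11) and the membrane arm subunit Ndufb6 (-0.35 ± 0.09). The member that rose was Ndufb7, a subunit of the membrane arm facing the intermembrane space (0.12 ± 0.04, adjusted p = 0.0126), at 11.12 to 11.56 in study 2 responders and 11.06 to 11.47 in IgG tumours, and at 11.36 to 11.89 and 11.11 to 11.46 in study 3. Ndufs4 spanned 9.78 to 11.48 in study 2 IgG tumours, so that the control tumours covered nearly the whole range of treated ones. Without the 7 tumours low in melanocyte transcripts 13 members were lower and 1 higher, against 6.89% and 8.14% of all genes.

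Non-responders were set against IgG tumours to see whether treatment without regression moved the members. No member passed in either direction, against 0% of all genes lower and 0.0055% higher, and 1 member had an unadjusted p under 0.05 (limma), against 6.05% of all genes. The median member stood at 0.02. The members with the smallest p were Ndufb7 (0.09 ± 0.04, adjusted p = 0.749), Cox4i2 (0.11 ± 0.06) and Cox8c (0.07 ± 0.05).

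Relapsed tumours, 3 in each study, were set against responders. No member passed, against 0% of all genes in either direction, and 2 had an unadjusted p under 0.05, against 5.29% of all genes: Cox6a1 (0.10 ± 0.04, adjusted p = 0.847) and the complex I subunit Ndufv3 (-0.20 ± 0.08, adjusted p = 0.847). Ndufs4 stood at 9.83, 10.39 and 10.23 in study 2 relapses and at 10.13, 10.39 and 10.03 in study 3 relapses, all inside the responder range of their study. The mean of the 5 complexes was 11.70 ± 0.11 (SD, n = 3) and 11.66 ± 0.09 (SD, n = 3) in these groups, beside 11.68 ± 0.18 (SD, n = 17) and 11.75 ± 0.16 (SD, n = 10) in responders. With 3 tumours a group, such values do not show that the groups are alike.

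Stabilized tumours of study 3 held the lowest group mean of the 5 complexes, 11.52 ± 0.39 (SD, n = 3), made of 11.12, 11.54 and 11.90. No member passed against the study 3 responders, where 0.033% of all genes were lower and 0.0769% higher, while 20 members (24.4%) and 7.8% of all genes had an unadjusted p under 0.05 and the median member stood at -0.22. The smallest p belonged to Cox5a (-0.23 ± 0.06, adjusted p = 0.147), Ndufs3 (-0.35 ± 0.10, adjusted p = 0.17) and the Rieske protein Uqcrfs1 (-0.41 ± 0.13, adjusted p = 0.237). Uqcrfs1 stood at 10.19, 10.81 and 11.44 in the 3 tumours, in the order of their melanocyte list means of 6.98, 8.37 and 9.34. Without stabilized tumour 3, 25 members were lower and 1 higher, against 4.12% and 3.34% of all genes; without tumour 2, 1 was lower.

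Growth delay tumours, 2 in study 2, gave no member that passed against IgG, with 0% of all genes called in either direction and 4 members (4.88%) at an unadjusted p under 0.05 (limma), against 5.44% of all genes. The testis isoform Cox6b2 stood at 5.04 and 4.55, beside 5.26 to 5.86 in 14 IgG tumours, a difference of -0.68 ± 0.18 (adjusted p = 0.282). Both tumours lay below every IgG tumour, at a level under the median of all genes.

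The antibody control was compared with the vehicle to see whether IgG alone moved the members. None passed, against 0.0055% of all genes lower and 0% higher, and 7 (8.54%) had an unadjusted p under 0.05, against 6.51% of all genes. The median member stood at -0.12, with Cox6c (-0.17 ± 0.07, adjusted p = 0.591) and the complex I subunit Ndufa3 (-0.17 ± 0.07, adjusted p = 0.6) at the smallest p. PBS tumours had the highest means of the 5 complexes, 12.00 ± 0.10 (SD, n = 3) in study 2 and 11.99 ± 0.15 (SD, n = 4) in study 3, beside 11.87 ± 0.17 (SD, n = 14) and 11.88 ± 0.15 (SD, n = 8) under IgG. With array weights 48 members were lower and 3 higher under IgG, against 15.8% and 11.2% of all genes, a result that rests on the weights.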

How the data were processed

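The deposited table holds 1 log2 value per probe set and tumour, made by the authors with RMA (a background, quantile and probe summary method) per the submitters' processing notes, which also name limma; joint or separate normalization of studies 2 and 3 was not stated in the sources. Values spanned 2.19 to 14.84 over 45101 probe sets. Of these, 34958 named 1 gene symbol, 932 several and 9211 none in the platform annotation. Each gene was represented by its probe set with the highest mean over all 90 arrays. All 18194 genes were fitted in limma 3.58.1 (R 4.3.3) with a mean for each of 12 study-by-outcome groups, empirical Bayes variances and Benjamini-Hochberg adjustment over all genes; contrasts across studies weighted both equally. Python 3.11.15 was used for descriptions, motif searches and plots. The fit was tested on simulated data with known changes, in which each gene varied independently. Such data do not show how the calls behave for genes that move together, as the members did. The number of arrays limits the precision.

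Named members were the 3 largest called falls or rises in each complex for responder against non-responder, a fixed set of isoforms and the complex II subunits; other comparisons name the 5 largest called changes in each direction, or the 3 smallest p, and pathway lists up to 3 genes of smallest p. Other subunits named beside these, single tumours and the role groups were chosen after values were seen. The members and lists were chosen with earlier results of these data known. Alternatives covered the prior, array weights, probe set summary, a level filter, centring, within-study quantile normalization, covariates for RNA quality and muscle, tumours left out and a stricter threshold.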

Additional observations from a re-analysis of the deposited data

Results flagged for a closer look

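In the study 3 groups of 4 to 10 tumours, 116 sets of values (24 named members and 5 complex means in 4 groups) were searched for a tumour that stood apart from its nearest neighbour by more than Dixon's 95% limit, which chance passes in about 1 of 20 groups; 9 did. Responder 4 stood apart for the muscle isoforms Cox6a2 (12.97, next 10.15), Cox7a1 (10.60, next 6.77) and Cox8b (11.87, next 8.43). Responder 3 stood apart for the complex II subunit Sdhb (11.75, next 12.17) and for Ndufa4l2 (6.48, next 8.29). IgG replicate 3 held 8.86 of Cox6a2 beside 7.85 in its neighbour, and PBS replicate 1 held 7.94 of Cox6a2 beside 7.51. PBS replicate 2, the array farthest in its 3′ to 5′ difference, held 4.90 of Cox7a1 beside 6.28. Non-responder 3 held 8.47 of the testis isoform Cox8c beside 8.19.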

How the results depend on the processing

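No paired analysis was possible because each tumour has a number of its own and the labels tie no tumours across groups. Counts of called members are given as the range when 1 tumour at a time was left out: 0 to 21 for study 2 responders against non-responders (1 with all tumours), 13 to 39 for study 3 (32), and 0 to 26 for stabilization against responders (0). For the study 2 contrast the other settings gave 53 with array weights, 52 with weights estimated gene by gene, 7 without tumours low in melanocyte transcripts, 3 with the muscle covariate, 2 with the 3′ to 5′ covariate with or without the farthest array, and 0 with the mean of all probe sets, genes above the median level, median centring, quantile normalization, only the groups compared or a threshold of 0.01. A threshold of 0.01 gave 32 for both studies together (52), 8 for study 3 and 12 for responders against IgG (42); leaving out the tumours low in melanocyte transcripts gave 8 for study 3 and 14 for responders against IgG. Array weights gave 65 for stabilization, 1 for growth delay and 51 for IgG against PBS; gene by gene weights gave 31 for stabilization and 37 for IgG against PBS. The array weights by REML, limma's default here, ran from 0.0261 to 134 and their fit did not converge, and the gene by gene weights, the 3′ to 5′ covariate without 1 array, and leaving out responder, non-responder and IgG tumours were chosen after seeing the data. The causes of these changes were not tested. Counts in this paragraph stand without the share of all genes in the same setting. They describe how the calls depend on the processing and say nothing particular to the members. Signs were compared only for the 24 named members in responder against non-responder, where no call changed sign in any setting. The complex means were recomputed with the mean of all probe sets and with median centring only. They then moved by less than the spread between tumours. That spread was about as large as the differences between outcomes, and larger for complex II. Such a limit therefore cannot show that the differences held.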
